A study of Mus musculus with 2 samples.

Results

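Natural killer (NK) cells in orthotopic mouse pancreatic tumors were described from 2 droplet libraries, and 126 of 14022 kept barcodes were taken as NK cells. Of these, 27 came from the 6904 kept barcodes of the PBS library and 99 from the 7118 of the cmExoaCD11b library. Barcodes were kept from 1000 unique molecular identifiers (UMIs, each standing for 1 captured RNA molecule) and 200 genes upwards, where no more than 20% of UMIs were mitochondrial. A kept barcode was taken as an NK cell with at least 2 UMIs of the 4 receptor genes Klrb1c, Ncr1, Klre1 and Klra8, no UMI of the T cell genes Cd3e and Cd3d, none of the B cell gene Cd79a and the macrophage gene C1qa, and less than 3% of UMIs from the neutrophil genes S100a8 and S100a9. The cells were thus chosen by their measured UMIs of these genes, so their levels are a description and not a result.

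The study asked how exosomes that carry both a STING agonist and an mRNA for IL-12 alter the immune cells of a pancreatic tumor. Both groups were male C57BL/6J mice, sourced at 5 to 6 weeks of age, with K210 cells inoculated into the pancreas, a line that came from a tumor of genetically engineered mice with Pdx1-Cre and Trp53 fl/fl. The first group was given PBS and the other cmExoaCD11b, exosomes of mouse embryonic fibroblasts (MEF) that hold IL-12 mRNA and cGAMP and bear an antibody against CD11b, at 5 µg of cGAMP per mouse. Cells of 3 mice per group were pooled 48 h after treatment into 1 library, so treatment, library and mice cannot be told apart, and no difference has a replicate check. The exosomes were directed at CD11b, which mature NK cells of mice also bear as the product of Itgam.

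NK cells are innate lymphocytes that kill without prior priming. Activating and inhibitory receptors on their surface are weighed against each other, and killing is carried out by granules of perforin and granzymes. IL-12, IL-18, IL-15 and type I interferon, which STING activation induces, are textbook activators of NK cells, and activated NK cells release interferon gamma and the chemokines Ccl3, Ccl4, Ccl5 and Xcl1, which draw in other leukocytes.

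The NK cells held 102858 UMIs in PBS and 381487 in cmExoaCD11b. The median cell had 2552 UMIs and 1484 genes in PBS and 3464 UMIs and 1709 genes in cmExoaCD11b. Levels are given as CPM, the count of a gene over the UMIs of all NK cells of a library, scaled to a total of 1000000. Since each molecule is counted at its 3′ end, levels of different genes can be set side by side without scaling to length. Ratios are those of cmExoaCD11b to PBS. The 95% intervals are exact Poisson for levels, exact Clopper-Pearson for shares and exact conditional for ratios. They cover counting error only, not differences between mice. Those of levels and of ratios of levels take each UMI as independent, so they also leave out the spread between cells.

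The label was checked on genes that the rule had not used. Gzma, the gene of granzyme A, stood at 6864 CPM in PBS NK cells and 6399 CPM in cmExoaCD11b NK cells. In T cells, gated by at least 2 UMIs of Cd3e and Cd3d with no UMI of the 4 receptors, it stood at 46.5 and 648 CPM, and in B cells at 0.992 and 2.29 CPM. Eomes, a transcription factor that NK cells need to mature, was at 253 and 207 CPM in NK cells, against 6.65 and 25.3 CPM in T cells and 0 in B cells. After each cell was thinned to 1000 UMIs, Eomes had a UMI in 25.9% and 18.2% of NK cells and in 0% of B cells (44.4% and 46.5% of NK cells unthinned, where NK cells had medians of 2552 and 3464 UMIs and B cells of 4803 and 6622.5 UMIs). Tyrobp, an adaptor of activating receptors, was at 1429 and 1334 CPM, against 228 and 259 CPM in T cells, and Klrk1, the gene of NKG2D, at 1021 and 716 CPM, against 61.1 and 60.1 CPM. All 4 genes were thus higher in the gated cells than in T cells, in both libraries. Tyrobp did not set the gated cells apart from the barcodes with 0 receptor UMIs that met the other limits of the gate. There it was at 1480.5 CPM in PBS and 1122 CPM in cmExoaCD11b. Gzma, at 0.538 and 11.7 CPM, Eomes, at 0.615 and 1.51 CPM, and Klrk1, at 10.7 and 28.1 CPM, were lower in those barcodes.

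Most cells lay well inside the gate. The median NK cell had 7 receptor UMIs in PBS and 9 in cmExoaCD11b, with 31 at most in each library, and 4 and 12 cells sat at the threshold of 2 UMIs. Barcodes at exactly 2 receptor UMIs had Gzma at 273 CPM in PBS and 2581 CPM in cmExoaCD11b. The barcodes just outside, with 1 receptor UMI, numbered 25 and 31, and Gzma there was at 3.45 and 103 CPM. Barcodes with at least 4 receptor UMIs had 7370 and 6961 CPM. The barcodes at exactly 2 UMIs held the T cell list at 3272 and 2246 CPM, and those at 3 UMIs in cmExoaCD11b at 3194 CPM, against 597 and 720.2 CPM at 4 or more. The T cell list was thus higher in the barcodes near the threshold, though below its level in T cells, 5359 and 4634 CPM. All 4 receptors were found in 11 of 27 PBS cells and 23 of 99 cmExoaCD11b cells, and only 1 of them in 2 and 12 cells.

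**Figure D1:**
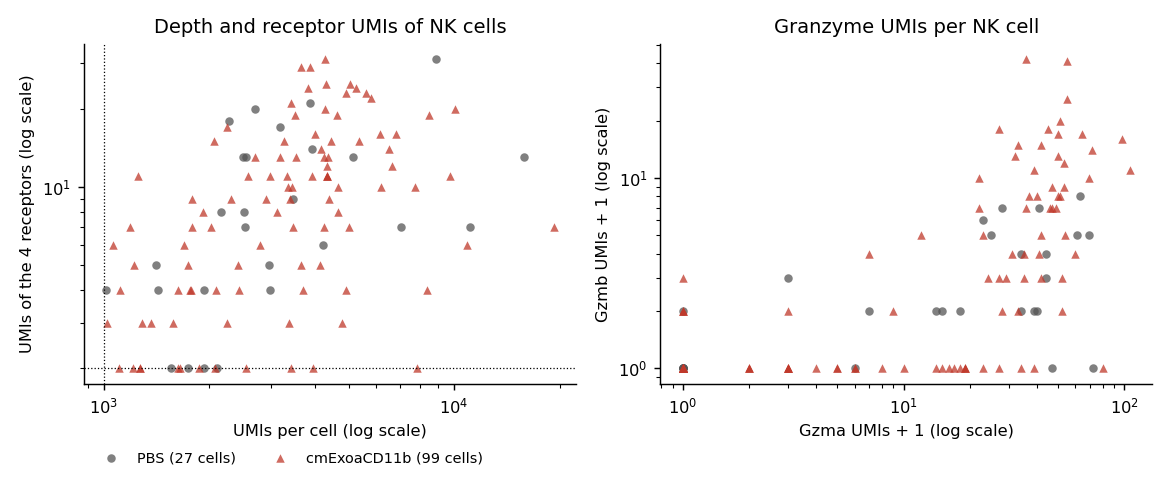
Each point is 1 NK cell, grey circles PBS (27 cells) and red triangles cmExoaCD11b (99 cells). Left, UMIs per cell against UMIs of the 4 receptors on log axes, with dotted lines at the thresholds of 1000 and 2. Right, Gzma against Gzmb UMIs per cell, each plus 1, on log axes; the cells with most Gzmb, up to 41 UMIs, are cmExoaCD11b cells, and no PBS cell is above 7.

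UMIs of genes used to mark other cells were found in the gated cells. UMIs of Trac, Cd3g or Trdc, which code for T cell receptor chains or a CD3 chain, were present in 11 of 27 PBS cells but in 13 of 99 cmExoaCD11b cells, and Trdc alone in 8 and 6 cells. The summed T cell list of 12 genes stood at 787 CPM in PBS and 941 CPM in cmExoaCD11b, led by Trbc1 at 156 and 320 CPM, with Cd4 at 0. The neutrophil list of 12 genes summed to 2149 and 1824 CPM in NK cells, led by Camp at 438 and 469 CPM, a gene at 12290.0 and 13592 CPM in near-empty barcodes of 10 to 100 UMIs. Free RNA of the droplets was estimated at 3.87% of NK UMIs in PBS and 3.39% in cmExoaCD11b. The macrophage and monocyte list of 13 genes summed to 544 and 946 CPM, led by Lyz2, with Mrc1 at 0, and the B cell list of 10 genes to 379 and 548 CPM, led by Igkc, with Ms4a1, Pax5 and Ebf1 at 0. Without the deepest cell of each library, described next, the neutrophil list had a ratio of 1.26 in place of 0.849 and the macrophage and monocyte list 0.816 in place of 1.74. The dendritic cell list of 11 genes summed to 117 and 231 CPM, from 12 and 88 UMIs. Its ratio was 1.98 (1.08 to 3.97), and 2.16 (1.08 to 4.90) without the deepest cells. Whether these UMIs came from other cells, and their part in the results below, was not tested. With the free RNA profile subtracted, 104 genes were at least 2-fold higher and 99 lower, and the list ratios were 0.934 for cytotoxic, 1.30 for type I interferon, 1.15 for interferon gamma, 1.04 for chemokine and 0.970 for maturation genes, each close to the values below. Genes abundant in free RNA moved: Camp went from a ratio of 1.07 to 0.285, Cxcl2 from 0.125 to 0.0448 and Lyz2 from 2.99 to 14.9.

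A single cell in each library stood apart. The deepest PBS cell had 15793 UMIs, 15.4% of all PBS NK UMIs, where the next had 11082, and it held 221 of the 284 UMIs of Cxcl2 and 79 of the 80 of Wfdc17 along with 1.73% of UMIs from S100a8 and S100a9. The deepest cmExoaCD11b cell had 19240 UMIs, 5.04% of that library's, and held 176 of the 233 UMIs of Lyz2 and 215 UMIs of the macrophage and monocyte list. Results that rest on them are given with and without the deepest cell of each library, a setting chosen after the values had been seen. No doublet caller was run on these few cells, and no barcode was shared between the NK cells of both libraries.

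NK cells made up 0.391% (0.258 to 0.568%) of kept barcodes in PBS and 1.39% (1.13 to 1.69%) in cmExoaCD11b. This was a ratio of 3.56 (2.30 to 5.66), larger than counting error. Among barcodes with less than 3% of S100a8 and S100a9 UMIs, which leaves most neutrophils out of the denominator, the shares were 0.648% of 4167 and 2.84% of 3491, a ratio of 4.38 (2.84 to 6.97). Under every other gate tried, NK cells made up a larger share of the cmExoaCD11b library, from 2.42 times with a single receptor UMI required to 5.21 times when cells with a UMI of Cd3g, Trac or Trdc were left out.

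Across the transcriptome, the NK cells of both libraries were close to each other. Of 1935 genes with a mean of at least 100 CPM over both libraries, 101 were at least 2-fold higher in cmExoaCD11b (5.22%) and 93 at least 2-fold lower (4.81%), and the median log2 ratio was 0.04. A level of 100 CPM stands for only 10.3 UMIs in PBS and 38.1 UMIs in cmExoaCD11b. Without the deepest cell of each library, 1918 genes could be compared, of which 102 were at least 2-fold higher (5.32%) and 53 at least 2-fold lower (2.76%). Of the 101 higher genes 74 were still past 2-fold there, and of the 93 lower genes 30. The lower genes thus rested far more on 1 cell than the higher ones. The gate mattered more: with 1 receptor UMI required, the PBS NK cells went from 102858 to 392830 UMIs by barcodes with Gzma at 3.45 CPM, 318 genes were at least 2-fold higher and 138 lower, and of 104 genes followed through all settings 66 had their ratio raised by over 1.5 times and 11 lowered by as much. The ratios below thus hold for the gate of 2 UMIs.

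**Figure D2:**
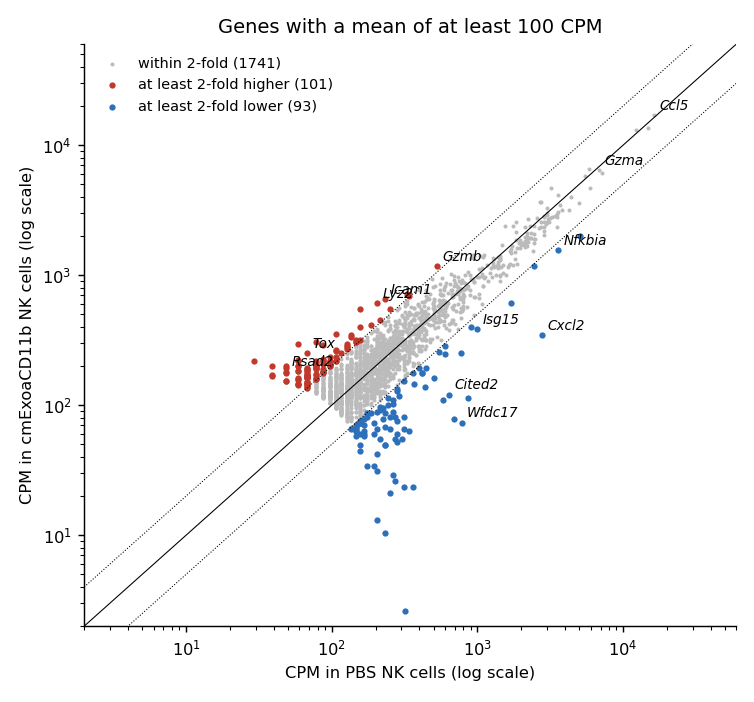
Each point is 1 of the 1935 genes compared, by its CPM in PBS NK cells (x axis) and cmExoaCD11b NK cells (y axis), on log axes, with lines at equal level and at 2-fold. The 101 genes at least 2-fold higher (red) and the 93 at least 2-fold lower (blue) lie mostly below 1000 CPM, and the highest points, Ccl5 and Gzma, are near the line of equal level.

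Granzyme A and perforin differed by less than 2-fold between the libraries, while granzyme B was higher and several other granule genes differed in either direction. Of 22 cytotoxic granule genes, 16 were abundant enough to compare, and 1 was at least 2-fold higher and 1 at least 2-fold lower, shares near the 5.22% and 4.81% of all genes compared. The list summed to 16605 CPM in PBS and 15502 CPM in cmExoaCD11b, a ratio of 0.934 (0.884 to 0.986), or 0.975 (0.919 to 1.03) without the deepest cells, and its median gene had a log2 ratio of −0.04, beside 0.04 over all genes compared. With 1 receptor UMI in place of 2 required, which took in 52 and 130 cells, the ratio of the list turned to 1.72. Gzma, at 6864 and 6399 CPM, had a ratio of 0.932 (0.857 to 1.02), but of 0.884 (0.811 to 0.965) without the deepest cells, which is clear of 1. It was 0.796 without cells over 3 times the median UMIs and 2.42 with 1 receptor UMI required. Prf1, the gene of the pore-forming perforin, was at 612 and 592 CPM (ratio 0.967, 0.729 to 1.30), and Nkg7, a granule membrane protein, at 1847 and 2136 CPM (1.16, 0.986 to 1.36). Both genes were found in most cells, Prf1 in 19 of 27 and 64 of 99. Srgn, the granule proteoglycan serglycin, was at 3539 and 2351 CPM (0.664), but the deepest PBS cell held 53.0% of its PBS UMIs, and without the deepest cells its ratio was 1.11 (0.941 to 1.32).

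Gzmb, the gene of granzyme B, stood at 525 CPM (394 to 685) among PBS cells and 1172 CPM (1066 to 1286) in cmExoaCD11b. The ratio was 2.23 (1.68 to 3.02), and 2.11 (1.57 to 2.87) without the deepest cells. With every cell weighted equally the ratio was 1.61, and without cells over 3 times the median UMIs it was 1.64, so the 2-fold call was lost in these settings. Gzmb had a UMI in 19 of 27 PBS cells, with at most 7 UMIs in a cell, and in 54 of 99 cmExoaCD11b cells, with up to 41. The 3 cells with most Gzmb held 35.2% of its UMIs in PBS and 23.7% in cmExoaCD11b. After thinning to 1000 UMIs, Gzmb was found in 48.1% (28.7 to 68.1%) of PBS and 42.4% (32.5 to 52.8%) of cmExoaCD11b NK cells, and in 0% of B cells, so that the intervals of these shares overlapped while those of the levels did not. Of the cells with a Gzmb UMI, nearly all had Gzma as well, 18 in PBS and 50 in cmExoaCD11b.

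Among other granule genes, Ctsc, the protease that activates granzymes, was at 156 and 260 CPM (ratio 1.67, 0.978 to 3.03). Ctsw, a cathepsin of killer lymphocytes, was lower, at 564 and 320 CPM (0.567, 0.412 to 0.789), and its ratio was 0.533 without the deepest cells and 0.986 with 1 receptor UMI required. Ctsd, a lysosomal protease, was at 612 and 393 CPM (0.642, 0.475 to 0.876), and Serpinb9, which shields killer cells from granzyme B, at 369 and 556 CPM (1.5, 1.06 to 2.18), or 1.42 (0.991 to 2.08) without the deepest cells. Stx11, a protein of granule fusion, was the gene more than 2-fold lower, at 243 and 99.6 CPM (0.410, 0.241 to 0.708), although without the deepest cells the interval included 1 (0.647, 0.334 to 1.33). Gzmf had no UMI in either library.

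Over 27 genes, receptors and adaptors summed to 10432 CPM in PBS and 10118 CPM in cmExoaCD11b (ratio 0.970, 0.906 to 1.04, and 0.930, 0.866 to 0.999, without the deepest cells), and of the 19 compared 0 were at least 2-fold higher and 1 was at least 2-fold lower, beside 5.22% and 4.81% of all genes compared. Klrk1 was lower, with a ratio of 0.701 (0.558 to 0.887), as was Klra7, an inhibitory Ly49 receptor, at 399 and 262 CPM (0.658, 0.453 to 0.970), but with 1 receptor UMI required the ratios turned to 1.45 for Klrk1 and 1.69 for Klra7. Fcer1g, an adaptor, was the most abundant member at 2207 and 1869 CPM (0.847), and Tyrobp had a ratio of 0.934 (0.776 to 1.13), or 0.818 (0.673 to 0.999) without the deepest cells. Cd247, the CD3 zeta chain that NK cells also use, was at 214 and 328 CPM (1.53, 0.968 to 2.53). Fcgr3, the Fc receptor CD16, was the member past 2-fold, at 156 and 44.6 CPM (0.286), but 10 of its 16 PBS UMIs were in 1 cell, and without the deepest cells its ratio was 0.641 (0.238 to 2.0).

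Klra7 had a UMI in 12 of 27 PBS cells and 40 of 99 cmExoaCD11b cells. Klrc1, the inhibitory NKG2A, stood at 262 CPM in both libraries (ratio 0.999, 0.647 to 1.59).

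**Figure D3:**
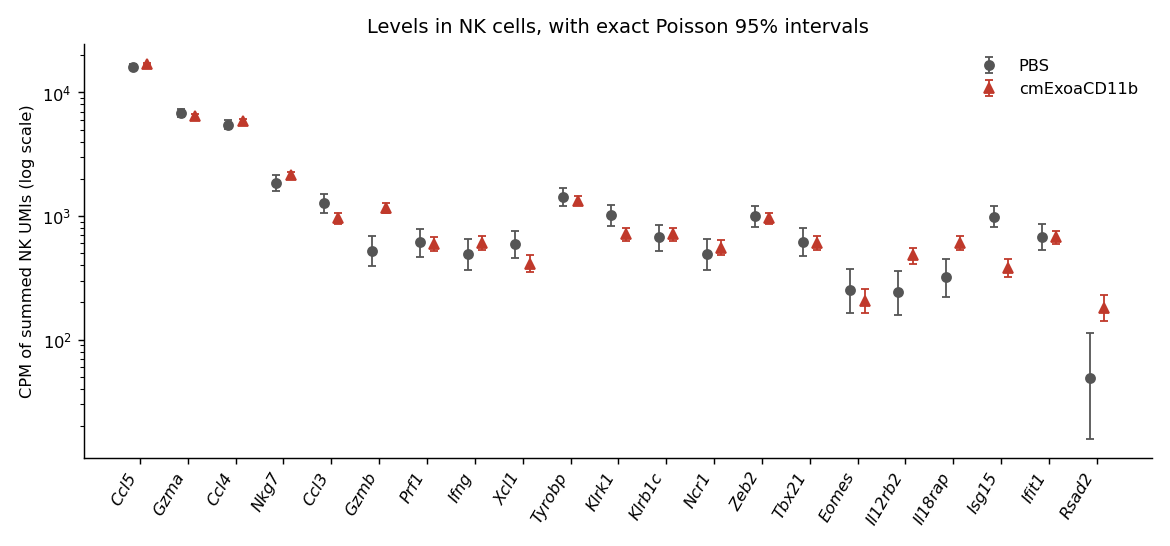
CPM of 21 genes in the NK cells of PBS (grey circles) and cmExoaCD11b (red triangles), on a log axis, with exact Poisson 95% intervals. Ccl5 is the highest in both libraries, and Gzmb, Il12rb2, Il18rap and Rsad2 are higher and Isg15 lower in cmExoaCD11b.

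Ccl5, which draws in T cells and myeloid cells, had the highest level of any gene in the NK cells of both libraries. It stood at 16197 CPM in PBS and 16970 CPM in cmExoaCD11b (ratio 1.05, 0.993 to 1.11) and was found in 26 of 27 and 91 of 99 cells. Ccl4, a chemokine of activated lymphocytes, stood at 5464 and 5827 CPM (1.07, 0.972 to 1.17), but the deepest cmExoaCD11b cell held 422 of its 2223 UMIs there, and without the deepest cells the ratio was 0.874 (0.791 to 0.968). Ccl3 was lower, at 1264 and 962 CPM (0.761, 0.622 to 0.937), and so was Xcl1, the attractant of type 1 dendritic cells, at 593 and 412 CPM (0.694, 0.513 to 0.949), although the ratio of Xcl1 turned to 1.25 with 1 receptor UMI required and to 1.11 without cells over 3 times the median UMIs. That of Ccl3 was 0.380 without cells holding Cd3g, Trac or Trdc. Ifng, the gene of interferon gamma, was at 496 CPM (369 to 652) and 608 CPM (532 to 692), a ratio of 1.23 (0.902 to 1.70) that counting error covers. The ratio of Ifng turned to 0.826 with every cell weighted equally and was 3.15 with 1 receptor UMI required. After thinning, Ifng had a UMI in 29.6% of PBS and 21.2% of cmExoaCD11b NK cells and in 0% of B cells. Tgfb1 was at 146 and 262 CPM (1.80, 1.04 to 3.33), with 1.33 (0.762 to 2.48) without the deepest cells. The 18 listed genes summed to 25423 and 26418 CPM (1.04, 0.995 to 1.09), of 8 compared 0 were past 2-fold in either direction, beside 5.22% higher and 4.81% lower of all genes compared, and without the deepest cells the ratio of the sum was 0.942 (0.900 to 0.985). The sum had a ratio of 2.16, Ccl5 of 2.69 and Ccl4 of 2.55 with 1 receptor UMI required.

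In B cells, which should lack it, Ccl5 was found in 1.39% and 1.69% of cells after thinning, against 96.3% and 90.9% of NK cells, but Ccl3 was found in 13.9% and 5.07% of B cells, against 37.0% and 39.4% of NK cells. Near-empty barcodes held Ccl3 at 2201 CPM in PBS and 813 CPM in cmExoaCD11b, a difference in the direction of that in NK cells. With the free RNA profile subtracted, the ratio of Ccl3 in NK cells was 0.790. Cxcl2, a neutrophil attractant, was found in 51.9% of PBS NK cells after thinning and in 48.6% of B cells, and in 31.3% and 22.6% in cmExoaCD11b.

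The delivered IL-12 mRNA makes the genes that sense cytokines of interest. Il12rb2, the signalling chain of the IL-12 receptor, had 243 CPM (157 to 359) among PBS cells and 480 CPM (413 to 554) among cmExoaCD11b cells, a ratio of 1.97 (1.30 to 3.13). Il18rap, the accessory chain of the IL-18 receptor, was at 321 and 611 CPM (1.90, 1.32 to 2.83). Without the deepest cells the ratios were 1.76 (1.15 to 2.79) and 1.86 (1.27 to 2.82), both larger than counting error. With every cell weighted equally, however, the ratio of Il12rb2 was 1.11, and with 1 receptor UMI required it was 5.33. Stat4, which the IL-12 receptor activates, was at 447 and 776 CPM (1.74, 1.27 to 2.42), and Il2rb, the chain that IL-2 and IL-15 share, at 612 and 870 CPM (1.42, 1.08 to 1.89). Jak1, a kinase of many cytokine receptors, was at 865 and 1064 CPM (1.23, 0.976 to 1.57), whereas Jak2, the kinase bound to Il12rb2, was lower, at 331 and 178 CPM (0.539, 0.352 to 0.840), with 55.9% of its PBS UMIs in 1 cell and a ratio of 1.36 with 1 receptor UMI required.

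As a group, the 31 cytokine-sensing genes summed to 6271 and 7922 CPM (ratio 1.26, 1.16 to 1.38), and 1.25 (1.14 to 1.36) without the deepest cells, where 1 gene was at least 2-fold higher and 1 lower. With all cells, of 17 genes compared, 12 had a ratio over 1 and 0 were past 2-fold in either direction, beside 5.22% higher and 4.81% lower of all genes compared. Their median log2 ratio was 0.28, beside 0.04 over all genes. The share of cells with an Il12rb2 UMI after thinning was 18.5% (6.30 to 38.1%) in PBS and 35.4% (26.0 to 45.6%) in cmExoaCD11b, and 63.0% and 59.6% unthinned; it was 0% in thinned B cells of both libraries. Of the IL-12 genes themselves, Il12a had 0 UMIs in PBS and 2 in cmExoaCD11b, and Il12b had 0 in both. With 102858 NK UMIs in PBS and 381487 in cmExoaCD11b, counts this low show no difference. In B cells the 2 genes summed to 22.8 CPM in PBS and 8.89 CPM in cmExoaCD11b. UMIs of delivered mRNA and of the cells' own transcripts cannot be told apart.

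The interferon response was uneven between genes and between cells. Of 55 type I interferon response genes, 14 could be compared, and 3 were at least 2-fold higher and 1 at least 2-fold lower; the list summed to 5658 CPM in PBS and 7466 CPM in cmExoaCD11b (ratio 1.32, 1.21 to 1.44). Without the deepest cells it was 1.17 (1.07 to 1.29), with 2 of 13 genes higher and 1 lower. The median log2 ratio of the 14 was 0.22, beside 0.04 over all genes compared, of which 5.22% were at least 2-fold higher and 4.81% lower. Per cell, the list took a median of 0.303% of UMIs in PBS (from 0.0802% to 2.80%) and 0.511% in cmExoaCD11b (0.161% to 3.23%). The middle cell of cmExoaCD11b was thus above the upper quartile of PBS, 0.485%, but the ranges overlapped.

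Rsad2, the antiviral enzyme viperin, was at 48.6 and 181 CPM (ratio 3.72, 1.52 to 11.8) and had a UMI in 3 of 27 and 22 of 99 cells; after thinning the shares were 0% and 10.1% of NK cells, beside 2.31% and 3.04% of B cells. Parp14, an interferon-induced ADP-ribosyltransferase, was at 48.6 and 155 CPM (3.18, 1.29 to 10.2). The PBS levels of both rest on 5 UMIs. Ifitm3, which blocks viral entry, had a ratio of 3.94, but 79.5% of its cmExoaCD11b UMIs were in 1 cell, and without the deepest cells the ratio was 1.15 (0.431 to 3.87). Ifit1, which binds viral RNA, was at 681 and 676 CPM (0.994, 0.760 to 1.31), yet its ratio was 0.711 with 3 receptor UMIs required, 0.741 without cells over 3 times the median UMIs and 2.04 with 1 receptor UMI required. It had a UMI in 3 of 27 PBS cells and 24 of 99 cmExoaCD11b cells; 1 PBS cell held 82.9% of it. Isg15, a ubiquitin-like protein, was the lower gene, at 992 CPM (809 to 1204) and 383 CPM (323 to 450), a ratio of 0.386 (0.298 to 0.502). Its ratio was 0.894 with 1 receptor UMI required. In PBS 3 cells held 79.4% of its UMIs, and after thinning it was found in 22.2% (8.62 to 42.3%) of PBS and 23.2% (15.3 to 32.8%) of cmExoaCD11b cells, beside 2.78% and 4.73% of B cells. Unthinned, the shares of NK cells with Isg15 were 22.2% and 38.4%, and those of B cells 13% and 26.4%, so that the order of the NK shares was opposite to that of the levels.

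The promoters of Isg15, Ifit1, Rsad2 and Gzma hold the letters of 1 motif. They are shown because the ratios differed, with Isg15 lower, Rsad2 higher and Ifit1 and Gzma near equal level. The promoter of Il12rb2 holds another motif alone. The windows are from RefSeq (GRCm38.p6), 250 bases before to 50 after the start of the gene, and 15 of 19 genes looked up had one. The interferon-stimulated response element was searched as GAAA, any 2 bases and GAAA again on both strands and the gamma-activated site as TTCNNNGAA, each read as its letters only. The first was in 3.44% and the second in 8.30% of all 32851 windows. Capitals mark the matches. The windows lie at chr4:156200769-156201068 on the minus strand (Isg15), chr19:34640639-34640938 on the plus strand (Ifit1), chr12:26456403-26456702 on the minus strand (Rsad2), chr13:113100932-113101231 on the minus strand (Gzma) and chr6:67376139-67376438 on the minus strand (Il12rb2).
Isg15: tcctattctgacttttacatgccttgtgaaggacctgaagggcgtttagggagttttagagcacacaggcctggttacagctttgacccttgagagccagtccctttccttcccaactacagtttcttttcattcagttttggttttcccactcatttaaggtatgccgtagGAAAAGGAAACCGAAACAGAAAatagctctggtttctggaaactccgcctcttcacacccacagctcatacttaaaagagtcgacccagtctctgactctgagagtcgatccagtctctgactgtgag
Ifit1: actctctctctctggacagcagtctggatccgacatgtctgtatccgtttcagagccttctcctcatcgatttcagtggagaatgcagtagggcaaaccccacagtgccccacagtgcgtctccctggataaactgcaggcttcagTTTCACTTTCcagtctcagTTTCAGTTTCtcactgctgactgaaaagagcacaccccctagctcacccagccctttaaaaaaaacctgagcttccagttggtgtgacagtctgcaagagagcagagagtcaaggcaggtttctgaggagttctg
Rsad2: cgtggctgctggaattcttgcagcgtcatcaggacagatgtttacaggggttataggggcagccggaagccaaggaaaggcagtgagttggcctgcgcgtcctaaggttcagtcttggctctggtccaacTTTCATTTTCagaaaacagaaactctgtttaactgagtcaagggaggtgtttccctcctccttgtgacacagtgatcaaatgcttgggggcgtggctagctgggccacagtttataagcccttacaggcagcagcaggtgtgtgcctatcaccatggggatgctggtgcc
Gzma: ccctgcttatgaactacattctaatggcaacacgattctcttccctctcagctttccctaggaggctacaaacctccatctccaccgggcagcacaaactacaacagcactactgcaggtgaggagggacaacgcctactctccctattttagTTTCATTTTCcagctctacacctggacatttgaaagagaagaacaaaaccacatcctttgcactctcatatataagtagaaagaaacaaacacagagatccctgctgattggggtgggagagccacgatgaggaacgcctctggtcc
Il12rb2: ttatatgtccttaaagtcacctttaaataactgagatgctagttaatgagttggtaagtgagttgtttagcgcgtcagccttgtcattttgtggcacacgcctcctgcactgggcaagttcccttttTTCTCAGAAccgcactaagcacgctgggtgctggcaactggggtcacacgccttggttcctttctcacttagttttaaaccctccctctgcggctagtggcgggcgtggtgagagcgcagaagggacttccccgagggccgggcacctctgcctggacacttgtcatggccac

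Isg15 had 3 overlapping matches to the response element, beginning 78, 72 and 66 bases before the start, Ifit1 had 2 at 104 and 85 bases, and Rsad2 had 1 at 120 bases. In NK cells the ratios of these genes were 0.386, 0.994 and 3.72. Gzma, with 0.932, also had 1 match, 97 bases before its start. Il12rb2 had 1 match to the gamma-activated site, 123 bases before its start, and Icam1 and Ifng had 1 each, at 42 and 249 bases. Gzmb had 1 within the gene, 37 bases after the start, and Ifitm3 had 2 matches to the response element, 2 and 19 bases after the start, and 1 to the gamma-activated site, 13 bases after it. Ifih1 had 1 match to the response element, 32 bases after its start. Prf1, Klrb1c, Ncr1, Il18rap and Nfkbia had no match to either set of letters in their windows. A match is a description of the letters and no evidence that a factor binds there.

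Genes of the interferon gamma response were slightly higher, at 9868 CPM in PBS and 11366 CPM in cmExoaCD11b over 34 genes (ratio 1.15, 1.08 to 1.23), and 1.08 (1.00 to 1.16) without the deepest cells. Of 15 compared 0 were past 2-fold, beside 5.22% higher and 4.81% lower of all genes compared, and 12 had a ratio over 1. Without the deepest cells 1 of 16 was at least 2-fold lower, beside 2.76% of all genes. With every cell weighted equally the ratio of the sum turned to 0.972, and to 0.980 without cells over 3 times the median UMIs. H2-K1, an MHC class I heavy chain, was the most abundant at 2217 and 2703 CPM (1.22, 1.06 to 1.41), and B2m, the light chain, was at 2119 and 2367 CPM (1.12, 0.962 to 1.30). H2-T23, the ligand of NKG2A receptors, was at 136 and 257 CPM (1.89, 1.07 to 3.58), but without the deepest cells the interval included 1 (1.53, 0.865 to 2.91). Nlrc5, the activator of class I genes, was at 107 and 194 CPM (1.81, 0.957 to 3.79). Irf1, a transcription factor of the response, was at 350 and 257 CPM (0.734, 0.496 to 1.11). Cxcl9 and Ciita had no UMI in NK cells.

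The 29 maturation genes summed to 9751 and 9445 CPM (ratio 0.969, 0.903 to 1.04), a ratio that turned to 1.76 with 1 receptor UMI required, and of 20 compared 1 was at least 2-fold higher and 1 lower, shares near the 5.22% and 4.81% of all genes compared. Without the deepest cells 3 of 19 were higher and 1 was lower, beside 5.32% and 2.76%. Itgam, whose product CD11b marks the late stages, was found without Cd27 in 16 of 27 PBS cells and 45 of 99 cmExoaCD11b cells. Cd27, which marks the early ones, was found without Itgam in 1 and 9 cells, and neither gene in 10 and 42. Single UMIs limit this reading: Itgam had a UMI in 13.4% and 12.8% of B cells, and Cd27 in 32.9% of CD8 T cells of each library but in 7.32% and 8.02% of them after thinning, so a cell without a Cd27 UMI may still express it. Zeb2 and Tbx21, which drive terminal maturation, had ratios of 0.963 (0.772 to 1.21) and 0.969 (0.732 to 1.30), at 1001 and 622 CPM in PBS, but Zeb2 had 43.7% of its PBS UMIs in 1 cell and a ratio of 1.39 (1.05 to 1.87) without the deepest cells. Eomes had a ratio of 0.819 (0.520 to 1.33).

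Gata3, the member more than 2-fold higher, was at 68.1 and 168 CPM (ratio 2.47, 1.13 to 6.38) and had a UMI after thinning in 3.70% (0.0937 to 19.0%) and 15.2% (8.74 to 23.8%) of cells, beside 0% of B cells, with a ratio of 2.16 (0.991 to 5.60) without the deepest cells. Emb, a marker of immature and innate lymphoid cells, was at 204 and 388 CPM (1.90, 1.20 to 3.16), and its ratio was 3.8 with every cell weighted equally and 5.35 without cells over 3 times the median UMIs. Klf2, which holds lymphocytes in a resting, circulating state, was lower, at 2421 and 1531 CPM (0.632, 0.544 to 0.736), the same without the deepest cells, and after thinning it was found in 81.5% and 56.6% of NK cells. Its level was lower in other cells too, with ratios of 0.610 (0.576 to 0.647) in B cells and 0.556 (0.510 to 0.605) in macrophages but 1.06 in T cells, and near-empty barcodes held it at 3669.9 and 2617 CPM. With 1 receptor UMI required, its ratio in NK cells was 1.43. Ly6c2, a surface protein of mature NK cells, was lower, at 360 and 178 CPM (0.496, 0.327 to 0.761), with 1.14 when 1 receptor UMI was required. Id2, which all innate lymphoid cells need, was at 1118 and 1436 CPM (1.28, 1.05 to 1.58), or 1.21 (0.982 to 1.51) without the deepest cells.

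Type 1 innate lymphoid cells, close relatives of NK cells that stay in tissue, carry Itga1 and Cxcr6 and lack Eomes. Either gene was found in 1 of 27 PBS cells and 7 of 99 cmExoaCD11b cells, and none of these had a UMI of Eomes. Eomes had a UMI in only 44.4% and 46.5% of all NK cells. CD8 T cells also held both other genes, Itga1 in 46.3% and 40.5% of cells and Cxcr6 in 67.1% and 42.6%. These UMIs thus do not settle what the few cells are. The list of 15 genes summed to 1497 and 1591 CPM (ratio 1.06, 0.889 to 1.28), with Zfp683 and Itgae at 0. Other innate lymphoid genes were nearly absent: Il22, Il13 and Il5 had no UMI, and Rora was the most abundant at 68.1 and 123 CPM.

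Chemokine receptors and homing genes were lower in sum, at 6679 and 5780 CPM (ratio 0.865, 0.794 to 0.944), and the sum without Klf2, the most abundant member, had a ratio of 0.998 (0.897 to 1.11). Ccr2, the receptor for Ccl2, was at 87.5 and 163 CPM (1.86, 0.918 to 4.25). Itgb2, the shared chain of CD11a and CD11b, was lower, at 321 and 165 CPM (0.515, 0.333 to 0.810), with 1.11 when 1 receptor UMI was required. Itga4 was at 749 and 773 CPM (1.03, 0.801 to 1.35), with 1.75 without cells holding Cd3g, Trac or Trdc and 2.21 with 1 receptor UMI required.

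Checkpoint receptors were scarce. Pdcd1, the gene of PD-1, had no UMI, and of 14 genes only Klrc1 and Tox could be compared. Tox, a transcription factor of NK development and of T cell exhaustion, was higher, at 68.1 CPM in PBS and 252 CPM in cmExoaCD11b (ratio 3.70, 1.73 to 9.44), and 3.30 (1.54 to 8.42) without the deepest cells. Its PBS level rests on 7 UMIs in 7 cells, and 42 of 99 cmExoaCD11b cells had a UMI. After thinning, Tox was found in 14.8% (4.19 to 33.7%) of PBS and 21.2% (13.6 to 30.6%) of cmExoaCD11b NK cells, intervals that overlapped, and in 0.926% and 0.676% of B cells (5.09% and 3.72% unthinned). Mki67 or Top2a, genes of dividing cells, had a UMI in 3 of 27 and 12 of 99 cells. Mki67 alone was found in 0% and 4.04% of NK cells, beside 11.1% and 26.7% of B cells. After thinning, the shares were 0% and 1.01% of NK cells and 1.85% and 5.74% of B cells. Single UMIs thus do not give a number of dividing NK cells. The cell cycle list, with 25 genes in the files, summed to 2440 and 2184 CPM (0.895, 0.776 to 1.03).

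Immediate-early and stress genes, which tissue dissociation also induces, were lower in sum, at 24587 and 19382 CPM (ratio 0.788, 0.753 to 0.825), and 0.804 (0.765 to 0.845) without the deepest cells. Of 23 genes compared 3 were at least 2-fold higher and 2 at least 2-fold lower, beside 5.22% and 4.81% of all genes compared. The same list was lower in B cells, at 11823 and 9625 CPM, and stood at 16446 and 17676 CPM in T cells. Nfkbia, the inhibitor of NF-kB, was at 3578 and 1554 CPM (0.434, 0.381 to 0.496), and 0.540 (0.463 to 0.630) without the deepest cells. With 1 receptor UMI required the ratio of Nfkbia was 0.979, and without cells over 3 times the median UMIs it was 0.601. Junb was at 2499 and 1900 CPM (0.761) and Jund at 3053 and 2682 CPM (0.878), or 0.809 (0.709 to 0.926) without the deepest cells. Nr4a2, a nuclear receptor, was higher, at 185 and 417 CPM (2.26, 1.4 to 3.85), and so was the heat-shock gene Hspa1b, at 107 and 351 CPM (3.28, 1.78 to 6.74). Hspa1b had a UMI in 8 of 27 PBS cells (29.6%) and 22 of 99 cmExoaCD11b cells (22.2%), the opposite order to its level, and its ratio turned to 0.606 with 1 receptor UMI required. The ratio of Nr4a2 was 1.80 with every cell weighted equally and 1.81 without cells holding Cd3g, Trac or Trdc. Egr1 had a ratio of 0.434, but 1.44 (0.777 to 2.92) without the deepest cells. In near-empty barcodes, Nfkbia stood at 3329 CPM in PBS and 1944 CPM in cmExoaCD11b; with the free RNA profile subtracted, its ratio in NK cells was 0.430. In B cells, with nothing subtracted, Nfkbia had a ratio of 0.529 (0.499 to 0.560).

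Glycolysis and hypoxia genes showed how far 1 cell could carry a list. The 20 genes summed to 4132 CPM in PBS and 2370 CPM in cmExoaCD11b (ratio 0.574, 0.510 to 0.645), and 6 of 13 compared were at least 2-fold lower, beside 4.81% of all genes compared. Without the deepest cells the ratio was 0.892 (0.768 to 1.04), and of 7 genes compared 1 was higher and 0 were lower. Gapdh was lower in both settings, at 768 and 469 CPM (0.611, 0.466 to 0.807) and 0.599 without the deepest cells, as was Eno1, at 418 and 176 CPM (0.420, 0.282 to 0.631) and 0.548. For Ldha the ratio moved from 0.426 to 0.933, and for the glucose transporter gene Slc2a1 and for Vegfa it moved to the other side of 1.

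**Figure D4:**
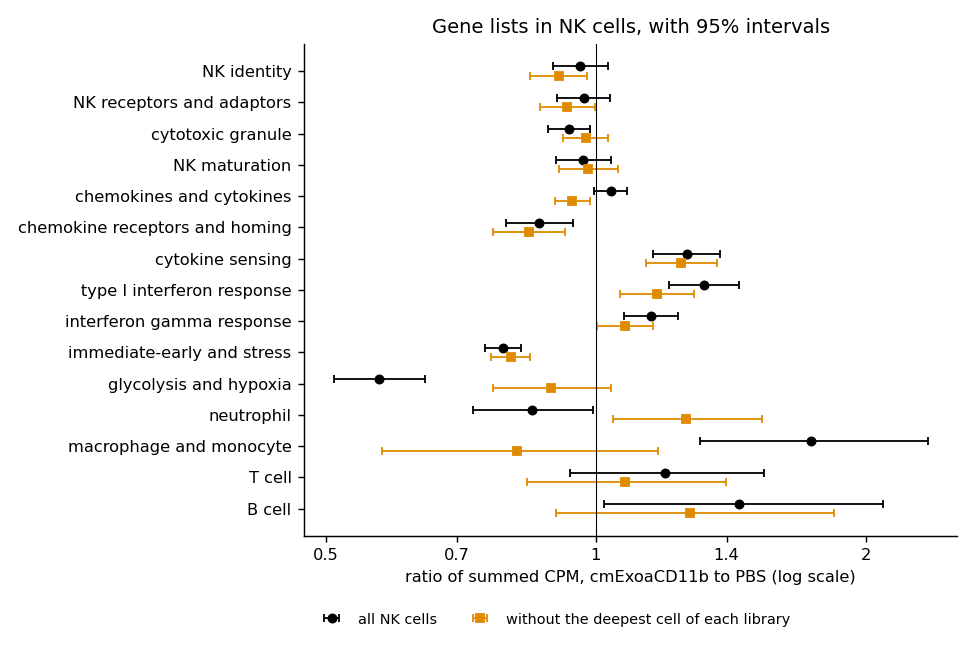
Ratios of summed CPM, cmExoaCD11b to PBS, for 15 gene lists in NK cells (log axis; bars are exact conditional 95% intervals), with all cells in black and without the deepest cell of each library in orange. The cytokine-sensing and type I interferon lists lie above 1 and the homing and immediate-early lists below 1 in both settings, whereas the glycolysis, neutrophil and macrophage lists move.

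Of all genes with a mean of at least 200 CPM, those with the highest ratios included Icam1, the ligand of CD11a, at 233 CPM (150 to 347) among PBS cells and 655 CPM (577 to 742) in cmExoaCD11b. Its ratio was 2.81 (1.84 to 4.47), and after thinning it was found in 7.41% and 27.3% of NK cells, against 6.48% and 3.72% of B cells. Stk4, a kinase of the Hippo pathway, was at 156 and 401 CPM (2.58, 1.54 to 4.62), Tbc1d1 at 136 and 346 CPM (2.54, 1.46 to 4.78), Aff1 at 136 and 336 CPM (2.47, 1.42 to 4.64), Herc4 at 126 and 294 CPM (2.32, 1.30 to 4.5) and Dip2b at 126 and 283 CPM (2.24, 1.26 to 4.34). All of these stayed past 2-fold without the deepest cells, but not in every other setting: Stk4 had 1.84 with every cell weighted equally, Tbc1d1 1.91 without cells over 3 times the median UMIs, Aff1 1.93 with 1 receptor UMI required and Dip2b 1.84 with 3 required. By contrast, Lyz2 and Plac8, also among the 10 highest, went to 0.685 and 1.13.

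Several of the 10 lowest were genes of 1 PBS cell. Wfdc17, Ier3, Slpi, Basp1 and Cdkn1a, with ratios from 0.0944 to 0.321, had between 80.8% and 98.8% of their PBS UMIs in 1 cell. Without the deepest cells their ratios lay between 0.921 and 3.61, and each interval included 1. Cited2, a transcriptional regulator, was lower in both settings, at 642 CPM in PBS and 121 CPM in cmExoaCD11b (0.188, 0.126 to 0.278), and 0.246 (0.159 to 0.379). So was Myc, the growth regulator, at 438 and 139 CPM (0.318, 0.209 to 0.483), and 0.344 (0.222 to 0.539), but the ratio of Myc was 0.735 without cells over 3 times the median UMIs and 0.896 with 1 receptor UMI required. Rhob, a small GTPase, was at 768 and 254 CPM (0.331), and 0.555 (0.377 to 0.830) without the deepest cells.

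T cells of the same libraries were set beside the NK cells, with 273 in PBS and 639 in cmExoaCD11b, of which 82 and 237 had a UMI of Cd8a or Cd8b1. Gzma was at 46.5 and 648 CPM in T cells, a ratio of 13.9 (11.1 to 17.7), and at 122 and 1357 CPM in CD8 T cells, a ratio of 11.1, where NK cells had 0.932. Gzmb had ratios of 4.81 (4.19 to 5.56) in T cells and 5.08 in CD8 T cells, where NK cells had 2.23. NK cells of the PBS library already held more Gzma than the T cells of either library. The levels of Gzmb in cmExoaCD11b were close, at 1172 CPM in NK cells and 1122 CPM in CD8 T cells. Whether the ratios differ between NK cells and T cells was not tested, since each comes from the same 2 libraries.

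Other genes differed from T cells in direction. Il12rb2 was at 192 and 134 CPM in T cells (ratio 0.70, 0.607 to 0.808), against 1.97 in NK cells. Isg15 was at 896 and 1247 CPM in T cells (1.39, 1.31 to 1.48) and also higher in B cells (3.05) and neutrophils (3.29), against 0.386 in NK cells. Rsad2 was higher in both, with 1.5 in T cells, 6.04 in CD8 T cells and 3.72 in NK cells, and so was Tox, with 1.96 in T cells.

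**Figure D5:**
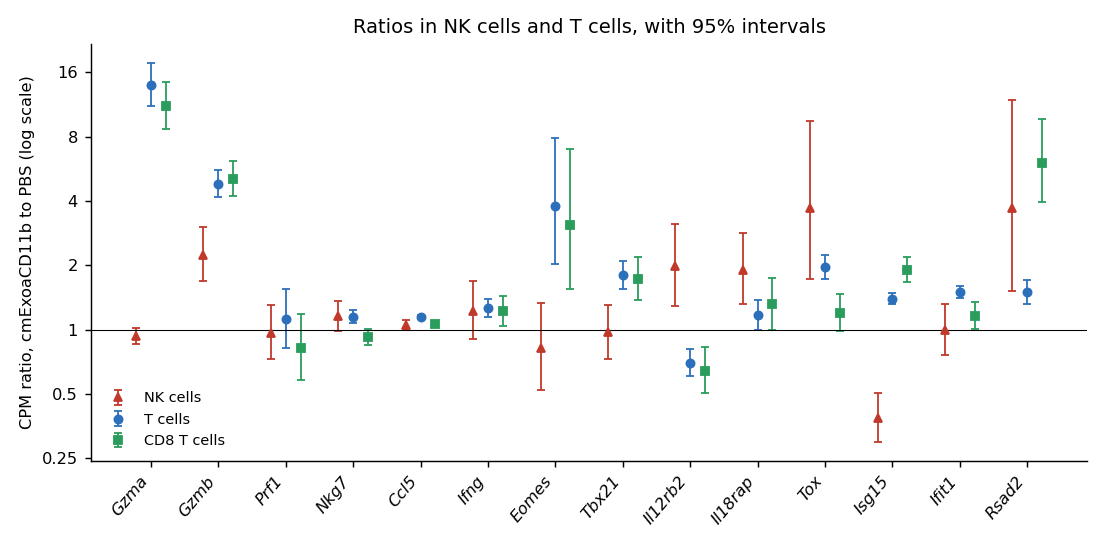
CPM ratios of cmExoaCD11b to PBS for 14 genes in NK cells (red triangles), T cells (blue circles) and CD8 T cells (green squares), on a log axis, with exact conditional 95% intervals. Gzma lies near 1 in NK cells and is more than 10-fold higher in T cells, and Il12rb2 and Isg15 lie on opposite sides of 1 in the NK and T cells.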

How the data were processed

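Single-cell libraries were made with 10x Chromium 3′ chemistry, and per the file headers the deposited UMI counts were produced by the authors with Cell Ranger 7.1.0; the genome build is not given in the sources used here. The deposited matrices were unfiltered, with 67143628 UMIs over 644248 barcodes in PBS and 81288480 UMIs over 723594 barcodes in cmExoaCD11b, 32285 genes and 0 columns of no sample. Barcodes were filtered and gated as stated at the start. UMIs of the NK cells were summed per library and scaled to CPM. Each condition was 1 library of 3 pooled mice, so no test was run and no p-value is given. A gene was compared with a mean of at least 100 CPM and called past a 2-fold ratio, and a count of 0 allows up to 3 UMIs. Free RNA was estimated from barcodes of 10 to 100 UMIs. Python 3.11.15, numpy 2.4.6, scipy 1.17.1, pandas 2.3.3 and matplotlib 3.10.9 were used, and the calculations were tested on simulated data.

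The cells and the gene lists were chosen with earlier results of these data known. Named genes were the 6 markers of the cell type, in each list the 3 most abundant and the 2 highest and 2 lowest ratios, the 10 highest and 10 lowest ratios among all genes with a mean of at least 200 CPM, and the most abundant gene and those at 0 of the lists for other cells. Other genes, such as Prf1, Tbx21, Itgam, Cd27, Stat4, Parp14 and Trdc, were named after their values had been seen. Alternatives varied the gate, the depth, the scaling, the free RNA correction, the filter and the fold. Leaving out the deepest cells was added after the data were seen. Some items are not reported here.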

Additional observations from a re-analysis of the deposited data

Results flagged for a closer look

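Ratios of several named genes lay on opposite sides of 1 in NK cells and in both T cells and CD8 T cells. Each interval was clear of 1, and 4 of these genes are described below. Fcer1g, Junb and H2afz were others, with ratios of 0.847, 0.761 and 0.760 in NK cells. Their ratios were 1.86, 1.10 and 1.33 in T cells and 5.18, 1.65 and 1.21 in CD8 T cells. The differences between the cell types were not tested. Il12rb2 had a ratio of 1.97 in NK cells, 0.70 (0.607 to 0.808) in T cells and 0.642 (0.502 to 0.824) in CD8 T cells, but its ratio in NK cells was 1.11 with every cell weighted equally. Isg15 had 0.386 in NK cells, 1.39 (1.31 to 1.48) in T cells and 1.90 (1.67 to 2.18) in CD8 T cells; the PBS level rests on 6 NK cells, of which 3 held 79.4% of the UMIs, and the share of NK cells with a UMI ran the other way, 22.2% in PBS and 38.4% in cmExoaCD11b. Jak2 had 0.539 in NK cells, 1.45 (1.27 to 1.67) in T cells and 1.59 (1.21 to 2.12) in CD8 T cells, and Ly6c2 had 0.496 in NK cells, 1.97 (1.75 to 2.23) in T cells and 1.45 (1.26 to 1.67) in CD8 T cells. With 1 receptor UMI required, the NK ratios of Jak2 and Ly6c2 were 1.36 and 1.14.

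Barcodes left out of the gate also carried NK receptors. Those with at least 2 receptor UMIs and a UMI of Cd3e or Cd3d made up 1.95% (1.64 to 2.30%) of kept barcodes in cmExoaCD11b and 0.797% (0.601 to 1.04%) in PBS, a ratio of 2.45 (1.78 to 3.41) that was not tested. They numbered 139 and 55 and had medians of 4953 and 6809 UMIs.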

How the results depend on the processing

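The share of NK cells was higher in cmExoaCD11b under all 13 alternatives, from 2.42 to 5.21 times. With 1 receptor UMI required, 318 genes were at least 2-fold higher, and the ratios were 1.72 for cytotoxic genes, 1.48 for type I interferon, 1.60 for interferon gamma, 2.16 for chemokine and 1.76 for maturation genes; Entpd1 turned to 1.91, Hspa1b to 0.606, Ifitm3 to 0.790, Ly6c2 to 1.14 and Plac8 to 0.734. Ratios within 2-fold crossed 1 there too, with Jak2 at 1.36, Itgb2 at 1.11, Klf2 at 1.43, Klra7 at 1.69, Klrk1 at 1.45, Junb at 1.5, Xcl1 at 1.25, Gzma at 2.42 and Eomes at 1.9, with 32 of 104 genes crossing in all; this gate took the PBS NK UMIs from 102858 to 392830. With at least 2000 UMIs the type I interferon ratio was 1.45. With S100a8 and S100a9 under 1% of UMIs, 53 genes were lower, the interferon gamma ratio was 1.06 and the chemokine ratio 0.953; Cdkn1a turned to 1.41, Egr1 to 1.39, Ier3 to 1.14, Slc2a1 to 1.18, Slpi to 1.96, Vegfa to 1.37 and Wfdc17 to 5.69. Without cells holding Cd3g, Trac or Trdc, 168 genes were higher and 177 lower, the type I interferon ratio was 1.11 and the chemokine ratio 0.924; Ifitm3 turned to 0.655 and Lyz2 to 0.851. Without cells over 3 times the median UMIs, the type I interferon ratio was 1.16 and the interferon gamma ratio 0.980; Cdkn1a turned to 1.01, Egr1 to 1.32, Ifitm3 to 0.879, Ldha to 1.55, Lyz2 to 0.629, Vegfa to 2.10 and Wfdc17 to 2.87. With cells weighted equally Il12rb2 had a ratio of 1.11 and Gzmb 1.61, and the lists had 1.20 for type I interferon, 0.972 for interferon gamma and 0.935 for chemokine genes. The counts higher and lower were 312 and 219 at a mean of 50 CPM, 20 and 29 at 200 CPM, 1060 and 1686 with no filter, and 307 and 239 at a fold of 1.5.

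These settings were chosen after the data were seen. Without the deepest cell of each library, 53 genes were lower, the type I interferon ratio was 1.17 and the chemokine ratio 0.942; Cdkn1a turned to 1.32, Egr1 to 1.44, Lyz2 to 0.685, Slc2a1 to 1.20, Slpi to 1.01, Vegfa to 1.44 and Wfdc17 to 3.61. Without the deepest PBS cell alone, 55 genes were lower, the interferon gamma ratio was 1.07 and the chemokine ratio 0.957; Cdkn1a turned to 1.42, Egr1 to 1.41, Ier3 to 1.14, Slc2a1 to 1.18, Slpi to 1.96, Vegfa to 1.37 and Wfdc17 to 6.39. Without the deepest cmExoaCD11b cell alone, Ifitm3 turned to 0.852 and Lyz2 to 0.771. The causes were not tested. Over 104 genes and 14 settings, 1215 ratios stayed within counting error, 201 moved and 37 that had been past 2-fold turned to the other side of 1. Ratios within 2-fold that crossed 1 are among those that stayed or moved. No paired analysis was possible because each condition is 1 library. Few PBS cells limit the depth: 100 CPM stands for 10.3 UMIs there.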

Other observations

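In the barcodes with both receptor and Cd3e or Cd3d UMIs, Gzma was at 901 CPM in PBS and 1763 CPM in cmExoaCD11b and Ccl5 at 8056 and 10447 CPM, whereas Gzmb was at 864 and 570.2 CPM, Prf1 at 229.9 and 93.7 CPM and Ifng at 508 and 359 CPM. They held Ncr1 at 12.8 and 26.1 CPM, and the NK cells at 496 and 556 CPM.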
